A study of Mus musculus with 9 samples.

Results

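The genes described here are 10 genes of the JAK-STAT pathway, 3 Janus kinase genes (Jak1, Jak2, Jak3), 4 STAT genes (Stat3, Stat5a, Stat5b, Stat6) and 3 genes of the SOCS family of inhibitors (Socs1, Socs3, Cish). They were selected by gene symbol among the 46517 genes with deposited values, and all 10 were among the 17714 genes tested, which had at least 5 reads in at least 1 library. RNA was sequenced from neutrophils of C57BL/6 mice that carried orthotopic pancreatic tumors (OT mice), in 3 libraries each from bone marrow, blood and tumor. A library held pooled cells of 5 mice, taken 27 days after transplantation, and the 3 libraries of each compartment are independent experiments. Tumors grew from 1 luciferase-expressing cell line of KPC mice, which develop pancreatic cancer, so all 3 groups came from tumor-bearing animals with the same tumor cells. The sort kept live CD45+ cells that were negative for CD3, B220 and NK1.1 and positive for Ly6G and Ly6C. The labels call the bone marrow cells Ly6G.hi and the others Ly6G+, whereas the methods give 1 gate. A pool of WT mice named in the methods was not analysed here.

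JAK kinases are bound to cytokine receptors and phosphorylate both the receptor and STAT proteins, which then enter the nucleus and switch on target genes. Among these targets are the SOCS genes and Cish, whose proteins bind the receptor or the kinase and end the signal, so their RNA is widely used as a trace of recent signaling. In neutrophils, G-CSF and GM-CSF use this route for growth, survival and release from the marrow. RNA sequencing shows the level of each transcript and not the phosphorylation of the protein.

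Values are log2 FPKM (reads scaled to gene length and library size, on a log2 scale) as deposited, and a change is the difference between 2 compartment means on that scale. Between 4580807 and 7949367 reads per library could be recovered from these values. All 8 neutrophil markers had reads in every compartment, and their sum was 41906 to 43550 RPM (reads scaled to library size) in marrow, 32474 to 33120 in blood and, in tumor, 10369 to 12013. Not every marker followed this sum. Csf3r and Cxcr2 had more reads in blood than in marrow, and Csf3r overlapped between marrow (13802 to 18048 reads) and tumor (17234 to 22928). The others had fewer reads in each blood library than in any marrow library. Markers of other cells were also present. The 6 markers of pancreatic epithelium took 2140 to 4764 RPM in tumor, 0.563 to 4.03 in bone marrow and 1.26 to 113 in blood, where replicate 2 held the highest value. The 5 fibroblast markers took 1075 to 1335 RPM in tumor and at most 9.99 elsewhere, and the 4 acinar markers took 402 to 1620 RPM in tumor and at most 3.07 elsewhere. Platelet markers were highest in blood (387 to 544 RPM), and the 7 macrophage markers took 1255 to 1417 RPM in blood, 491 to 632 in tumor and 380 to 392 in bone marrow. The lower sum in tumor than in blood was that of Csf1r, with 4796 to 6885 reads in blood and 1254 to 1709 in tumor. C1qa, C1qb and Mrc1 went the other way, with more reads in each tumor library than in any blood library, and C1qc, Adgre1 and Apoe overlapped. Lymphocyte markers were at 5.31 to 5.69 RPM in tumor and 21.7 or more elsewhere, and endothelial markers were at 72.7 to 114 RPM in tumor and at most 34.7 elsewhere. In such bulk samples, fewer cells of a type and less RNA per cell cannot be told apart.

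**Figure D1:**
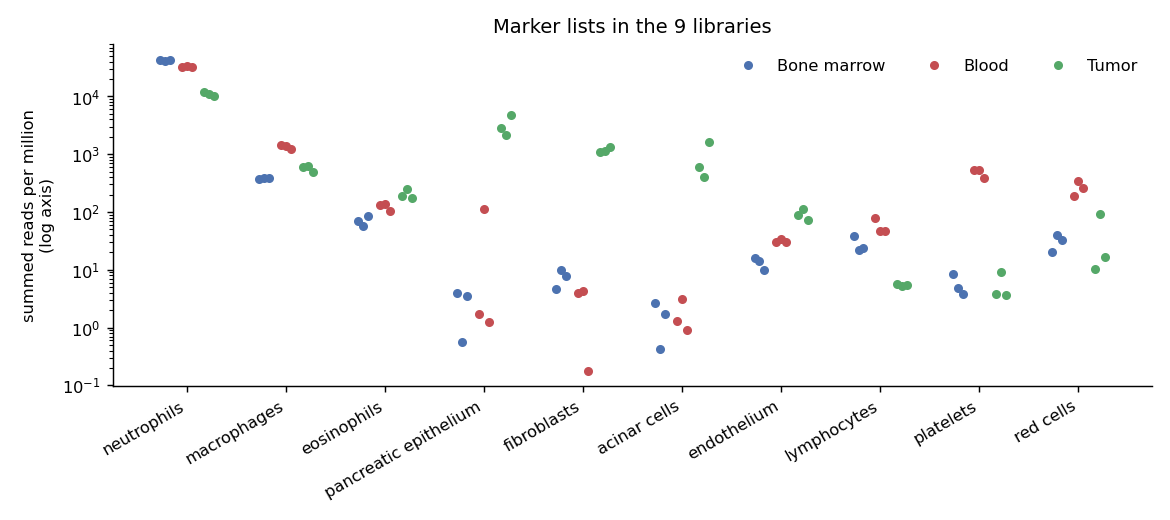
Summed RPM (reads scaled to library size, log axis) of each marker list in the 9 libraries, with 1 point per library. Markers of pancreatic epithelium, fibroblasts and acinar cells are high in the 3 tumor libraries, whereas the sum of the neutrophil markers falls from 41906 or more in bone marrow to 12013 or less in tumor.

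The 10 genes were split by compartment and by role. In tumor against blood, 1 was higher (Cish) and 6 were lower (Jak1, Jak3, Stat3, Stat5a, Stat5b, Stat6), where 54.9% of all genes tested were called, 33.8% higher and 21.1% lower. Against bone marrow, 3 were higher in tumor (Jak2, Socs3, Cish) and 4 lower (Jak1, Stat3, Stat5a, Stat5b), with a background of 46.5%, 26.9% higher and 19.5% lower. From bone marrow to blood, 7 were higher and 0 lower, with a background of 31.8%, 13.7% higher and 18.1% lower. These calls are from limma at a Benjamini-Hochberg adjusted p of 0.05 over all genes tested, and the count of 0 lower genes was also 0 at an unadjusted p of 0.05 and with limma-voom. Cish was the 1 gene whose tumor level passed above blood and above bone marrow (background 20.8%), and 4 genes were lower than in both (background 13.2%). The median change of the 10 was -0.82 for tumor against blood, -0.20 for tumor against marrow and 0.79 for blood against marrow, where the median over all genes tested was 0.50, 0.29 and 0.00. That of -0.20 turned to 0.25 on plain library totals and to 0.03 with quantile normalization. The background also depended on the read filter. With only genes above a log2 FPKM of 0 in 3 or more libraries kept, 7794 genes stayed, all 10 among them. Their median was -0.17 for tumor against blood and -0.21 for tumor against marrow, the latter next to the -0.20 of the 10. Of the 7794, 2206 were then higher and 2720 lower against blood, and 1763 higher and 2603 lower against bone marrow. The 3 comparisons share their libraries, so their values for a gene stand side by side and are not independent.

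The scaling of the libraries bears on these counts. The authors' factors on library size were 0.840 ± 0.043 in marrow, 0.841 ± 0.023 in blood and 1.15 ± 0.069 in tumor (n = 3 each, SD). On plain library totals the median of all genes moved up by 0.449 in tumor against blood and by 0.452 in tumor against bone marrow. The calls against blood then went from 5996 higher and 3735 lower to 7532 and 2576, and those against bone marrow from 4770 and 3459 to 6606 and 2235. Of the 10 genes, 4 were then higher and 5 lower in tumor than in blood, and 4 were higher and 2 lower than in bone marrow. Centring each library on its median moved the calls the other way, to 3428 higher and 7245 lower against blood and 3052 and 6533 against bone marrow, with 1 of the 10 genes higher and 8 lower against blood and 3 higher and 6 lower against bone marrow. Quantile normalization gave 4248 higher and 5445 lower against blood and 3660 and 4940 against bone marrow, with 3 of the 10 genes higher and 5 lower against blood and 3 higher and 2 lower against bone marrow. The changes of Cish in both tumor comparisons, of Socs3 and Jak2 against bone marrow, and of Stat5b in all 3 comparisons kept their direction and passed the threshold under each of the 22 alternatives tried.

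In GRCm38 (GENCODE M21), the kinase genes lie at chr4:101152367-101265282 (Jak1, - strand), chr19:29251828-29313080 (Jak2, +) and chr8:71676296-71690575 (Jak3, +). Stat5b (chr11:100780731-100850724, -), Stat5a (chr11:100859351-100885169, +) and Stat3 (chr11:100885098-100939540, -) are neighbours, and Stat6 is at chr10:127642986-127660957 (+). The inhibitor genes are at chr16:10782240-10785536 (Socs1, -), chr11:117966079-117970047 (Socs3, -) and chr9:107296026-107302784 (Cish, +). The values of Socs1 rest on a length of 1729 bases, shorter than its 3297 bases in this annotation.

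**Figure D2:**
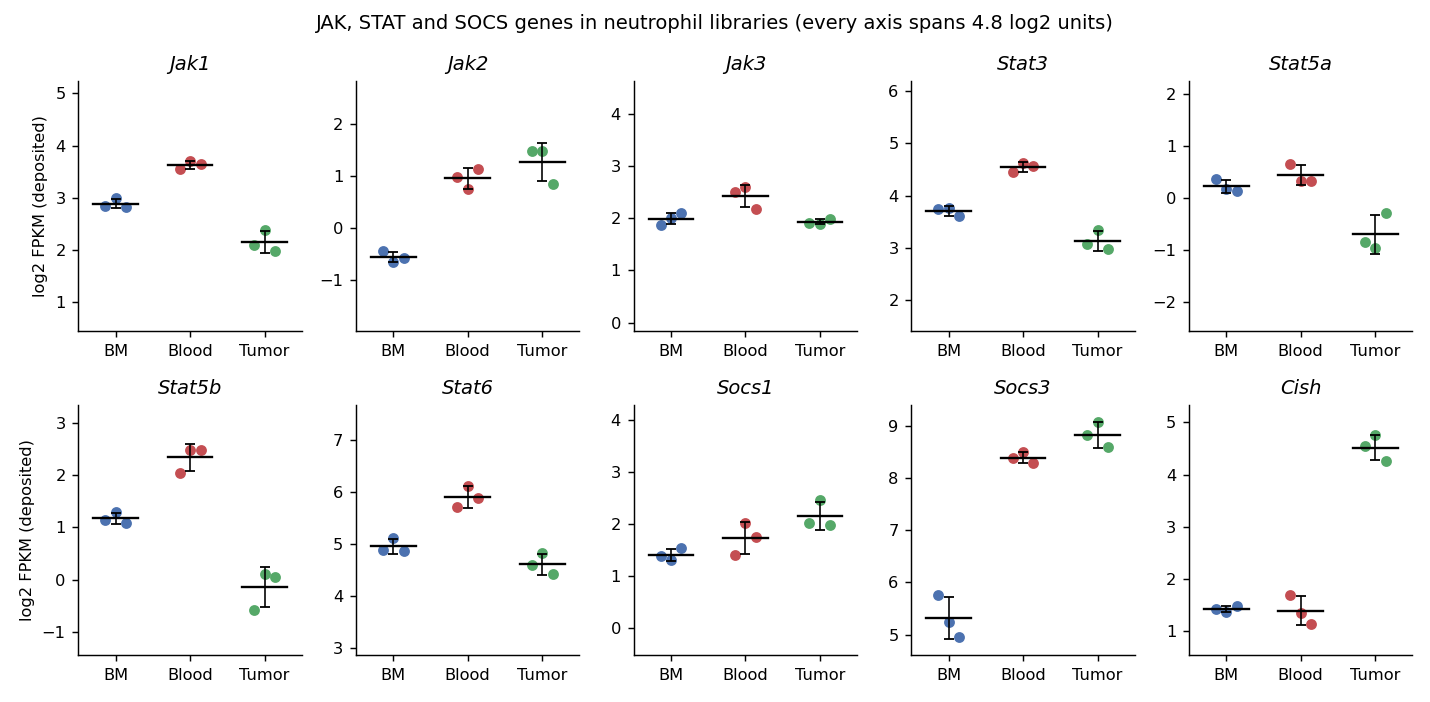
Deposited log2 FPKM of the 10 genes in each of the 9 libraries (points), with the mean (line) and SD (bar, n = 3) of each compartment, on axes that all span the same number of log2 units. Cish lies above 4 in the 3 tumor libraries and below 2 in the others, Socs3 lies above 8 in blood and tumor, and Stat5b is lowest in tumor.

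**Figure D3:**
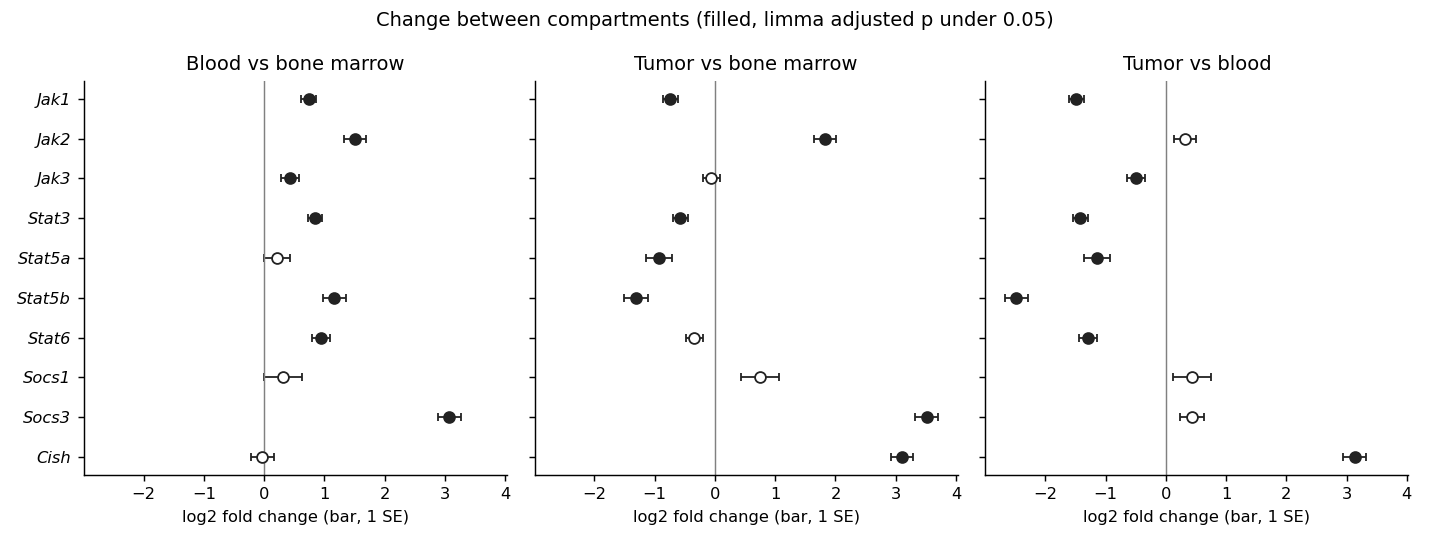
Change of each gene between compartments in log2 units, with 1 SE as the bar and filled points where the limma adjusted p passed 0.05. Most STAT and JAK genes lie right of 0 in blood against bone marrow and left of 0 in tumor against blood, while Cish lies near 3 in both tumor panels.

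Cish, a SOCS family gene that STAT5 induces and whose protein dampens cytokine receptors that use STAT5, was higher in tumor than in either other compartment. It had 120, 98 and 125 reads in the bone marrow libraries, 86, 96 and 69 in blood and 975, 1379 and 1032 in tumor. On the log2 FPKM scale these were 1.41, 1.36 and 1.48 in marrow, 1.69, 1.35 and 1.13 in blood and 4.54, 4.75 and 4.27 in tumor. Every tumor library lay far above every other library, while bone marrow and blood overlapped. The level in tumor was 8.76-fold that in blood (change 3.13, SE 0.19, adjusted p = 5.19e-07) and 8.59-fold that in bone marrow (change 3.10, adjusted p = 5.57e-07). Blood and bone marrow differed by -0.03 (adjusted p = 0.981), a value near 0 that changed sign in 4 of the 22 alternatives. The lowest tumor value was in replicate 3, which also held the most epithelial reads (4764 RPM, against 2802 and 2140), and whether these reads had a part in it was not tested.

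Socs3, which STAT3 induces and whose protein blocks signaling by the G-CSF and IL-6 receptors, was already high in blood. Its log2 FPKM was 5.76, 5.25 and 4.94 in marrow, 8.39, 8.50 and 8.29 in blood and 8.83, 9.08 and 8.59 in tumor. Blood and tumor libraries all lay above the bone marrow libraries, and each tumor value was above each blood value. In reads, this was 811 to 1438 in marrow, 5276 to 8010 in blood and, in tumor, 11171 to 16189. Socs3 was 8.43-fold higher in blood than in bone marrow (change 3.08, SE 0.19, adjusted p = 1.85e-06) and 11.4-fold higher in tumor than in bone marrow (change 3.51, adjusted p = 3.33e-07). Tumor and blood differed by 0.44, which did not pass the test (adjusted p = 0.0795). That difference passed as higher in tumor in 6 of the 22 alternatives. Among these were plain library totals (0.89, adjusted p = 0.001103), a block on the replicate number (0.44, adjusted p = 0.0364) and the fit without bone marrow replicate 1 (0.44, adjusted p = 0.0351). With median centring the difference turned to -0.78 and passed as lower in tumor (adjusted p = 0.0106).

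Socs1, which is induced by interferons and inhibits the kinases directly, had few reads in all libraries. It had 30, 24 and 33 reads in marrow, 18, 39 and 27 in blood and 43, 72 and 54 in tumor, with log2 FPKM of 1.39, 1.31 and 1.53, of 1.41, 2.02 and 1.74, and of 2.01, 2.47 and 1.98. The tumor libraries lay above those of bone marrow and overlapped those of blood. Neither tumor difference passed the test, with 0.74 against bone marrow (SE 0.31, adjusted p = 0.0743) and 0.43 against blood (adjusted p = 0.271), and both turned negative with quantile normalization and median centring. The first passed in 4 alternatives and the second in 1, plain library totals being among them for both.

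The DNA around the RefSeq start of Cish and Socs3 is shown because these are the 2 inhibitor genes that changed, and because STAT proteins bind the palindrome TTCNNNGAA. The sequences are the RefSeq windows of GRCm38.p6, 300 bases from 250 before to 50 after the RefSeq start, read along the strand of the gene. Capitals mark each match to the palindrome. By the GENCODE positions given above, the windows of Cish and Socs3 both lie wholly inside the gene. Windows were found for all 10 genes, 12 in all.
Cish, chr9:107296409-107296708, + strand: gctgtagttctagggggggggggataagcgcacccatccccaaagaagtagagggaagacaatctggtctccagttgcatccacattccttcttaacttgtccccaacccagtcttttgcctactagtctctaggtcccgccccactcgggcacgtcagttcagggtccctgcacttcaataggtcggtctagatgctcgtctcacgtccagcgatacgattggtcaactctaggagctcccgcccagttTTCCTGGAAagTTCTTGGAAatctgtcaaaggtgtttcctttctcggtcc
Socs3, chr11:117969317-117969616, - strand: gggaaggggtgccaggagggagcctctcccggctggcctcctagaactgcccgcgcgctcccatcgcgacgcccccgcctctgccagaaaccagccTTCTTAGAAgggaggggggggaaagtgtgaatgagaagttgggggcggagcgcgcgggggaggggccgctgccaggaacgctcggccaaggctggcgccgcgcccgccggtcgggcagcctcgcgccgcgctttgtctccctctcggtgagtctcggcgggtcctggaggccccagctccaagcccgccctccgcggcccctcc
The Cish window held 2 matches, TTCCTGGAA at bases 251 to 259 and TTCTTGGAA at bases 262 to 270, the first of them at the RefSeq start itself, which lies inside the GENCODE gene. The Socs3 window held 1, TTCTTAGAA at bases 97 to 105. Searched on both strands, TTCNNNGAA was found in the windows of no other gene of the 10, Socs1 included. It was in 8.3% of 32851 promoter windows, and 2 or more matches were in 0.457%. The wider form TTCNNNNGAA, which STAT6 prefers and which does not match the same letters, was in 6.95% of all windows and in none of the 12. A match describes the letters of the window and is not a bound site.

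Of the kinases, Jak1 and Jak2 moved in opposite directions between bone marrow and tumor. Jak1, the kinase shared by the interferon, IL-6 and common gamma chain receptors, had a log2 FPKM of 2.85, 2.99 and 2.82 in marrow, 3.55, 3.70 and 3.64 in blood and 2.10, 2.37 and 1.97 in tumor. The 3 compartments did not overlap, with blood highest and tumor lowest. Jak1 was 2.80-fold lower in tumor than in blood (change -1.48, SE 0.12, adjusted p = 3.82e-06) and 1.67-fold lower than in bone marrow (adjusted p = 0.000545), and 1.67-fold higher in blood than in bone marrow (adjusted p = 0.000942). The decrease against bone marrow did not pass with quantile normalization (change -0.19, adjusted p = 0.104).

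Jak2, which serves the GM-CSF, IL-3 and erythropoietin receptors, had a log2 FPKM of -0.44, -0.64 and -0.58 in marrow, 0.99, 0.75 and 1.13 in blood and 1.49, 1.48 and 0.85 in tumor. Bone marrow lay below all other libraries, and blood and tumor overlapped. Jak2 was 2.85-fold higher in blood than in bone marrow (change 1.51, SE 0.19, adjusted p = 0.000148) and 3.55-fold higher in tumor than in bone marrow (change 1.83, adjusted p = 2.02e-05). Tumor and blood differed by 0.31 (adjusted p = 0.175), a difference that depended on the scaling. It was 0.76 on plain library totals (adjusted p = 0.00325), 0.73 with quantile normalization (adjusted p = 0.00788) and -0.90 with median centring (adjusted p = 0.00523), each past the threshold. Without tumor replicate 3, the lowest of the tumor libraries, the difference from blood passed the test (0.53, adjusted p = 0.0129).

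Jak3, which pairs with the common gamma chain, had a smaller fitted change than Jak1 in each comparison. Its log2 FPKM was 1.87, 2.01 and 2.10 in marrow, 2.51, 2.59 and 2.18 in blood and 1.92, 1.89 and 2.00 in tumor, so that only blood stood apart. In tumor it decreased by 0.49 against blood (SE 0.15, adjusted p = 0.0143) and in blood it was above bone marrow by 0.43 (adjusted p = 0.0424), while tumor and bone marrow differed by -0.06 (adjusted p = 0.764). The second of these calls was lost in 11 of the 22 alternatives, which include the replicate block (0.43, adjusted p = 0.0612) and leaving out bone marrow replicate 1 (0.37, adjusted p = 0.140), bone marrow replicate 2 (0.44, adjusted p = 0.0891), bone marrow replicate 3 (0.48, adjusted p = 0.0612), blood replicate 1 (0.39, adjusted p = 0.113) or blood replicate 2 (0.35, adjusted p = 0.132). The first was lost in 4, among them plain library totals (-0.04, adjusted p = 0.822) and the fit without blood replicate 2 (-0.41, adjusted p = 0.0528). The difference of Jak3 between tumor and bone marrow depended on the scaling. It was -0.93 with median centring, past the threshold (adjusted p = 0.000249), and 0.39 on plain library totals (adjusted p = 0.0547).

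Stat3, the STAT of the IL-6 and G-CSF receptors, had a log2 FPKM of 3.74, 3.77 and 3.60 in marrow, 4.45, 4.63 and 4.56 in blood and 3.08, 3.35 and 2.97 in tumor. As for Jak1, the compartments did not overlap and blood was highest. Stat3 was 2.67-fold lower in tumor than in blood (change -1.42, SE 0.12, adjusted p = 4.96e-06) and 1.79-fold higher in blood than in bone marrow (adjusted p = 0.000407). Its change of -0.57 against bone marrow (adjusted p = 0.00267) did not pass on plain library totals (change -0.12, adjusted p = 0.269) or with quantile normalization (change -0.03, adjusted p = 0.822).

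Stat5b, which with Stat5a carries the GM-CSF signal, showed the steepest decrease of the 10 genes. It had a log2 FPKM of 1.15, 1.29 and 1.09 in marrow, 2.05, 2.49 and 2.49 in blood and -0.58, 0.11 and 0.06 in tumor. No library of a compartment reached into another compartment. The level in tumor was 5.58-fold below blood (change -2.48, SE 0.19, adjusted p = 2.85e-06) and 2.48-fold below bone marrow (change -1.31, adjusted p = 0.000267), and blood was 2.25-fold above bone marrow (change 1.17, adjusted p = 0.00103). Ptprc, chosen after its values were seen, encodes CD45, on which the cells were sorted. It changed by -2.36 in tumor against blood (limma adjusted p = 1.98e-06) and by -1.17 against bone marrow (adjusted p = 0.0002865). In blood against bone marrow it changed by 1.19 (adjusted p = 0.000488). Whether the decreases of the 10 genes and of Ptprc share a source was not tested.

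Stat5a had fewer reads, with 166 to 223 in marrow, 153 to 182 in blood and 89, 100 and 169 in tumor. Its log2 FPKM was 0.37, 0.19 and 0.13 in marrow, 0.66, 0.34 and 0.34 in blood and -0.84, -0.96 and -0.28 in tumor. The tumor libraries lay below all others, and blood and bone marrow overlapped. In tumor Stat5a decreased by 1.14 on the log2 scale against blood (SE 0.21, adjusted p = 0.000984) and decreased by 0.92 against bone marrow (adjusted p = 0.00437), the latter not on plain library totals (change -0.47, adjusted p = 0.121), and blood and bone marrow differed by 0.21 (adjusted p = 0.504). Both genes lie with Stat3 on chromosome 11, within 158810 bases of GRCm38. Stat5b and Stat5a are separated by 8626 bases, and the ends of Stat3 and Stat5a overlap by 72 bases, where reads of a kit that does not mark the strand cannot be assigned to either gene. Of the transcript windows as long as a read, 4.65% of Stat5a and 3.44% of Stat5b were identical to a window of the other gene.

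Stat6, the STAT of the IL-4 and IL-13 receptors, had a log2 FPKM of 4.89, 5.12 and 4.86 in marrow, 5.71, 6.12 and 5.88 in blood and 4.59, 4.82 and 4.43 in tumor. Blood was highest in all its libraries, and tumor lay just below bone marrow without overlap. Stat6 was 2.44-fold lower in tumor than in blood (change -1.29, SE 0.14, adjusted p = 3.08e-05) and 1.93-fold higher in blood than in bone marrow (adjusted p = 0.000564). The difference of -0.34 between tumor and bone marrow did not pass (adjusted p = 0.0717), and its sign turned on plain library totals (0.11) and with quantile normalization (0.19). It passed with the replicate block (-0.34, adjusted p = 0.019), with median centring (-1.22, adjusted p = 0.00023) and without tumor replicate 2 (-0.45, adjusted p = 0.0421).

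Because the deposited length is the genomic span for most genes, levels were compared between genes only after rescaling to exon length, as exonic FPKM. In bone marrow the order was Jak1 (171 ± 11.2, SD, n = 3), Stat6 (148), Stat3 (114), Socs3 (63.8), Stat5b (28.6), Jak3 (12.8), Jak2 (8.30), Stat5a (7.64), Cish (4.94) and Socs1 (2.64), where the libraries of Jak1 and Stat6 and those of Jak2 and Stat5a overlapped. In blood, Socs3 was first (524 ± 38.0), ahead of Stat6 (287) and Jak1 (285), which overlapped, Stat3 (205) and Stat5b (64.7). In tumor, Socs3 was at 715 ± 120, Stat6 at 117 and Jak1 at 103, again overlapping, Stat3 at 77.0 and Cish at 42.9 ± 7.19. Cish thus ranked 9 of 10 in bone marrow and blood and 5 in tumor, whereas Stat5b went from rank 5 in both to 8 in tumor, where it overlapped Jak3 (11.7 and 12.2).

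Differences between 2 of the genes in the same library do not depend on the scaling of libraries. They were taken on the deposited values without rescaling to exon length. Only their shifts between compartments can therefore be read, and their sign does not rank the 2 genes. In marrow, Socs3 minus Stat3 was positive, although exonic FPKM was 63.8 for Socs3 and 114 for Stat3. For Socs3 minus Stat3, the log2 FPKM difference was 2.02, 1.48 and 1.34 in marrow, 3.95, 3.87 and 3.72 in blood and 5.75, 5.73 and 5.62 in tumor. These rose in steps without overlap, with a gap of 1.85 between tumor and blood and of 2.23 between blood and bone marrow. For Cish minus Stat5a it was 1.04, 1.17 and 1.35 in marrow, 1.03, 1.01 and 0.79 in blood and 5.38, 5.72 and 4.54 in tumor, with a gap of 4.27 between tumor and blood. Stat5a minus Stat5b was -0.94 ± 0.17 in marrow, -1.90 ± 0.44 in blood and -0.56 ± 0.45 in tumor (n = 3 each, SD), with tumor and bone marrow overlapping. Socs3 minus Socs1 was 3.91 ± 0.48 in marrow, 6.67 ± 0.28 in blood and 6.68 ± 0.12 in tumor. Of these 12 comparisons, 10 had groups without overlap and an exact two-sided permutation p of 0.1, the smallest that 3 against 3 libraries allow (0.12 after Benjamini-Hochberg adjustment), so none could pass 0.05. The other 2 had exact p-values of 0.3 (Stat5a minus Stat5b, tumor against bone marrow) and 1.0 (Socs3 minus Socs1, tumor against blood).

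**Figure D4:**
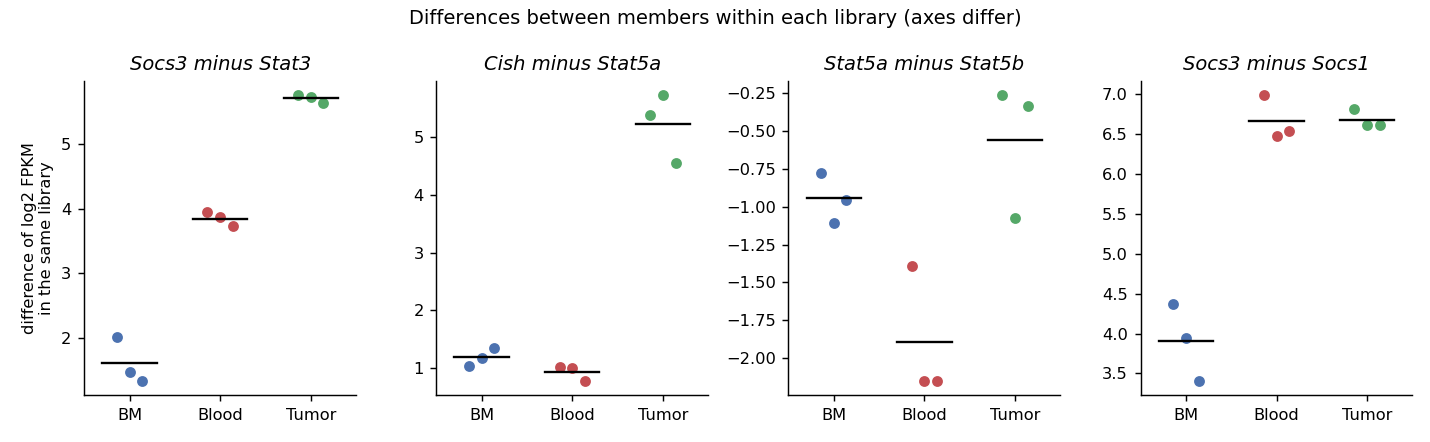
Difference of deposited log2 FPKM between 2 genes of the same library, with 1 point per library, a line at the compartment mean and a separate axis for each pair. Values are not rescaled to exon length, so only shifts between compartments can be read. Socs3 minus Stat3 climbs from near 1.61 in bone marrow through 3.85 in blood to 5.70 in tumor, and Cish minus Stat5a stands above 4 only in tumor.

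The other genes of the pathway were grouped by role. The percent of all genes tested that was called stays the background for these counts, 33.8% higher and 21.1% lower in tumor against blood, 26.9% and 19.5% in tumor against bone marrow and 13.7% and 18.1% in blood against bone marrow. Of 8 further JAK, STAT and SOCS genes, 2 were higher and 3 lower in tumor than in blood, 4 were higher and 2 lower than in bone marrow, and 1 was higher and 0 lower in blood than in bone marrow (also 1 and 0 at an unadjusted p of 0.05 and with limma-voom). Without blood replicate 2, tumor replicate 2 or tumor replicate 3, 3 in place of 5 were called in tumor against blood. Their median change was 0.51, 0.65 and 0.54, and it was negative with median centring in both tumor comparisons (-0.70 and -0.22) and with quantile normalization against blood (-0.20). Socs2, an inhibitor induced through STAT5, had 267, 271 and 327 reads in the tumor libraries and 0 or 1 in each of the other 6, and so reached the read filter in tumor only. Without Socs2, the other 7 had 1 higher and 3 lower against blood and 3 higher and 2 lower against bone marrow. Their median change was then 0.486 and 0.335, where that of all genes tested was 0.50 and 0.29. Stat4, which acts below the IL-12 receptor, decreased by 2.19 in tumor against blood (adjusted p = 7.62e-06) and decreased by 2.16 against bone marrow (adjusted p = 1e-05). Tyk2, the fourth kinase, decreased by 0.66 (adjusted p = 0.00366, lost on plain library totals) and decreased by 0.91 (adjusted p = 0.000585). Socs5 was higher in tumor by 2.07 (adjusted p = 0.0205) and by 2.67 (adjusted p = 0.00645), with 40 reads in tumor replicate 1 and 189 and 218 in the others. The first of its calls was lost in 7 alternatives, among them without blood replicate 1 (adjusted p = 0.0598), blood replicate 2 (0.091), tumor replicate 2 (0.107) or tumor replicate 3 (0.118), and the second without tumor replicate 3 (adjusted p = 0.054).

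Stat2, a STAT of the interferon response, changed by -0.69 (adjusted p = 0.0135) in tumor against blood, and did not pass against bone marrow (change of 0.27). Stat2 alone of the 8 was higher in blood than in bone marrow, by 0.96 (adjusted p = 0.00429), and its decrease against blood was lost in 6 alternatives, among them without blood replicate 2 (-0.61, adjusted p = 0.0591), tumor replicate 2 (-0.67, adjusted p = 0.0564) or tumor replicate 3 (-0.53, adjusted p = 0.071). Socs6 and Socs7 were higher in tumor than in bone marrow by 0.97 (adjusted p = 0.00875) and 1.49 (adjusted p = 0.0139), and differed from blood by 0.49 and 0.87 without passing. Both calls were lost with median centring, that of Socs6 also with a pseudocount of 1, and that of Socs7 also with quantile normalization and without bone marrow replicate 2 (1.32, adjusted p = 0.0533). Socs4 passed in neither tumor comparison (0.54 and 0.33), and passed against blood without tumor replicate 1 (0.87, adjusted p = 0.0182).

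Among 14 regulators, which include phosphatases that remove the activating phosphate, PIAS proteins that hold STATs and receptor adaptors, 2 were higher and 8 lower in tumor than in blood, and 3 were higher and 7 lower than in bone marrow. Between blood and bone marrow, 4 were higher and 3 lower, and without bone marrow replicate 1, blood replicate 1 or blood replicate 2 the number called was 4 in place of 7. Ptpn6, which encodes the phosphatase SHP-1, fell by 2.17 in tumor against blood (adjusted p = 1.19e-06) and fell by 1.32 against bone marrow (adjusted p = 4.22e-05). The adaptor gene Sh2b3, an inhibitor of JAK2, fell by 2.13 (adjusted p = 0.00053) and fell by 2.25 (adjusted p = 0.000457), and Pias3, which restrains STAT3, fell by 1.29 in both (adjusted p = 0.00186 and 0.0023). Sh2b2, a related adaptor, rose by 3.25 (adjusted p = 2.15e-05) and by 2.06 (adjusted p = 0.000585). Their median change was -0.72 for tumor against blood, -0.47 for tumor against marrow and 0.02 for blood against marrow, where the second was -0.01 on plain library totals, with 5 higher and 6 lower.

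The 22 receptor genes were mostly higher in blood than in bone marrow, 13 against 1 lower, and in tumor 12 were lower and 5 higher than in blood, 4 lower and 8 higher than in bone marrow. The 4 lower genes of 22 are near the background of 19.5%. Osmr reached the read filter in tumor libraries only, and the other 21 had 4 higher and 12 lower against blood and 7 higher and 4 lower against bone marrow. The median change of the 22 was 0.90 in blood against marrow, -0.69 in tumor against blood and 0.01 in tumor against marrow. The last was -0.86 with median centring, with 5 higher and 12 lower. Osmr, the oncostatin M receptor, had 158, 188 and 225 reads in tumor, 1 in blood replicate 2 and 0 in the other 5 libraries, at least 166-fold above bone marrow when the 0 there is set to 3 reads over the group. Il5ra, the IL-5 receptor of eosinophils, had 292, 300 and 459 reads in tumor and at most 10 elsewhere. Il6st, the gp130 chain shared by the IL-6 family, was higher in tumor by 3.28 than in blood (adjusted p = 1.83e-05) and by 2.60 than in bone marrow (adjusted p = 0.000111). Csf2ra, the alpha chain of the GM-CSF receptor, fell by 1.19 (adjusted p = 9.76e-05) and fell by 1.27 (adjusted p = 7.83e-05). The 4 eosinophil markers took 177 to 252 RPM in tumor, 104 to 137 in blood and 58.4 to 86.3 in bone marrow, and this order is that of Siglecf alone (1001 to 1691 reads in tumor, 534 to 875 in blood and 157 to 231 in marrow). The granule protein genes Prg2 and Epx went the other way, with 138 to 326 and 78 to 141 reads in marrow, 0 in blood and, in tumor, at most 2 and 0, and Ccr3 had 21 to 60 reads in all 9 libraries.

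Of 14 ligand genes, 8 were tested, and the other 6 (Il4, Il11, Il13, Il12b, Ifng, Ifnb1) had at most 3 reads in any library. In tumor, 7 were higher than in blood and 6 higher than in bone marrow, and 0 were lower in either (0 also at an unadjusted p of 0.05 and with limma-voom). Of the 8, Csf2, Csf3, Il10 and Il23a reached the filter of 5 reads in tumor libraries only and could not have been lower there, and of the other 4, 3 exceeded blood and 2 exceeded bone marrow. With the filter of log2 FPKM above 0 in 3 or more libraries, 2 ligands were called in each of these comparisons. In blood 0 were higher and 2 lower than in bone marrow (0 and 3 at an unadjusted p of 0.05, 0 and 1 with limma-voom). This last count was 1 without bone marrow replicate 3, blood replicate 1, blood replicate 3 or any 1 tumor library. Il23a, a subunit of IL-23, had 499, 954 and 471 reads in tumor and 0 in all 6 other libraries, at least 420-fold above blood and at least 561-fold above bone marrow. Lif, a ligand of the IL-6 family, had 45, 110 and 93 reads in tumor, 0 in blood and 0, 5 and 12 in bone marrow, and its call against bone marrow (adjusted p = 0.0108) was lost without tumor replicate 2 (adjusted p = 0.0536) or tumor replicate 3 (adjusted p = 0.0523). Csf2 (GM-CSF) had 14, 11 and 12 reads in tumor and Csf3 (G-CSF) had 11, 20 and 7, both with 0 elsewhere, which puts them at least 8.08-fold and 8.30-fold above blood.

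Of 20 known STAT target genes, 19 were tested and Retnla was not. In tumor, 12 were higher and 3 lower than in blood, 13 higher and 2 lower than in bone marrow, and in blood 8 were higher and 3 lower than in bone marrow, with median changes of 1.96, 1.97 and 0.69 that stayed positive under each scaling tried. Timp1 and Ccl24 reached the read filter in tumor libraries only and could not have been lower there. The other 17 had 10 higher and 3 lower against blood and 11 higher and 2 lower against bone marrow. The median change of these 17 was 1.54 and 1.6 in the 2 tumor comparisons, where that of all genes tested was 0.50 and 0.29. Timp1, a metalloproteinase inhibitor, had 82, 69 and 57 reads in tumor and 0 in the other 6 libraries, at least 45.4-fold above blood and 60.6-fold above bone marrow. Arg1, which encodes the arginine-degrading enzyme and is a target of STAT6, had 679, 1076 and 581 reads in tumor, 52, 31 and 40 in blood and 4, 0 and 2 in bone marrow. Ccnd1, which encodes cyclin D1, was higher in tumor by 5.34 than in blood (adjusted p = 6.86e-07) and by 5.68 than in bone marrow (adjusted p = 4.57e-07). Ccl24, a chemokine for eosinophils, had 4, 16 and 14 reads in tumor and 1 read in all other libraries together, and its calls were lost with quantile normalization. The epithelial, fibroblast and acinar markers given above were high in the same 3 libraries as these receptor, ligand and target genes. The part of those cells in these values, and in the changes of the 10 genes, was not tested.

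**Figure D5:**
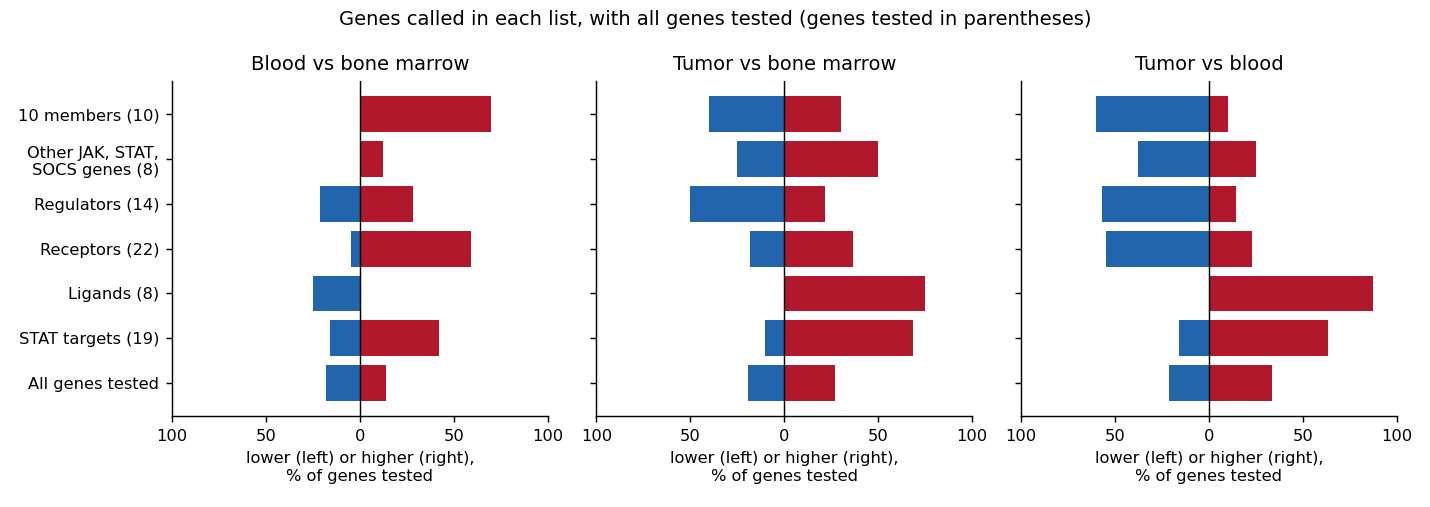
Percent of the genes tested that were called lower (left) or higher (right) in each comparison, for the 10 genes, the 5 other lists of the pathway and all genes tested. Ligand and STAT target genes lie mostly to the right in both tumor panels, where 4 of the 8 ligands reached the read filter in tumor libraries only, and the 10 genes lie mostly to the left in tumor against blood and entirely to the right in blood against bone marrow.

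The genes whose pattern was most like that of the inhibitors were found by Pearson r of log2 FPKM over the 9 libraries, among 8257 genes with a mean of at least 50 reads. The r is a description, since the 9 points share 3 compartments. For Cish these were Ccl3, a chemokine (r = 0.997), Arf4, a GTPase of vesicle transport (0.997), and Ptgs2, the inducible cyclooxygenase (0.997). Ccl3 had a mean log2 FPKM of 2.71 in marrow, 2.97 in blood and 9.99 in tumor, and Ptgs2 of 1.94, 1.98 and 8.98. For Socs3 they were Siglecf (0.995), with means of 1.80, 4.06 and 4.39, Eps8 (0.994), a regulator of actin, and Zfp36l1 (0.993), which promotes RNA decay, with means of 1.16, 3.74 and 3.92. Siglecf is also one of the 4 eosinophil markers. For Socs1 they were Trp53bp2 (0.970), Simc1 (0.960) and Cars (0.959), and Trp53bp2 ran from -0.92 in bone marrow through -0.46 in blood to 0.08 in tumor.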

How the data were processed

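RNA from sorted neutrophils was made into cDNA with SMARTSeq v2. The authors mapped reads with STAR 2.5.2b to GRCm38 and counted them with featureCounts 1.5.0 (versions from the submitters' processing notes), and they deposited log2 FPKM values of 46517 genes in 9 libraries, with 0.25 reads added before the log and with scaled library sizes. Whole reads were recovered for all 46517 genes from the steps between low values, within a tolerance of 0.02 reads, and RPM are these reads scaled to the total of the library. Scaling on ERCC controls was not possible, since 0 of their rows are listed. Exon lengths and positions are from GENCODE M21, and the gene length behind the values equalled the genomic span for 39113 of 46005 genes found there.

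All genes that reached 5 reads in 1 library or more entered limma 3.58.1 (R 4.3.3, functions lmFit and eBayes, the latter with a trend) on the deposited log2 values, with 1 coefficient per compartment, no covariate and Benjamini-Hochberg adjustment over all 17714 genes (threshold 0.05). The procedure was tested on simulated data. Differences between genes within a library were compared by exact permutation tests. The 10 genes and all lists were chosen with earlier results of these data known. Named were all genes of the list of further JAK, STAT and SOCS genes, from which 1 gene is left out as not reported here, and of the other lists up to 4 genes called in the same direction in both tumor comparisons, largest first by the smaller change. PCR duplicates remain in the reads, so a counting error taken from read numbers is a lower limit. It also leaves out the spread between libraries. Alternatives were other filters, pseudocounts, scalings, variance models, limma-voom on recovered reads, only the compartments compared, a replicate block and each library left out.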

Additional observations from a re-analysis of the deposited data

How the results depend on the processing

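Of the 21 calls made among the 10 genes in 3 comparisons, 16 were kept under all 22 alternatives, 5 were lost under some and 0 were reversed, and of the 9 differences not called, 6 passed under some. The counts of the 10 genes called stayed within 1.5 times. With only genes above a log2 FPKM of 0 in 3 or more libraries kept, 7794 genes were tested, and 4926, 4366 and 3544 were called in tumor against blood, tumor against bone marrow and blood against bone marrow, compared with 9731, 8229 and 5635, since fewer genes were tested.

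Among the 10 genes and the 8 further JAK, STAT and SOCS genes, signs turned for differences that were not called, and the cause was not tested. Of the genes given under other observations, called differences also turned, for Il4ra (0.0082) and Bcl2l1 (-0.04) in tumor against blood. With quantile normalization, tumor against blood became -0.74 for Socs1, -0.051 for Socs4 and -0.35 for Socs7, tumor against bone marrow became 0.087 for Jak3, 0.19 for Stat6 and -0.0996 for Socs1, and blood against bone marrow became 0.26 for Cish. With median centring, tumor against blood became -0.90 for Jak2, -0.79 for Socs1, -0.78 for Socs3, -0.68 for Socs4, -0.73 for Socs6 and -0.35 for Socs7, tumor against bone marrow became -0.13 for Socs1, -0.61 for Stat2 and -0.54 for Socs4, and blood against bone marrow became 0.31 for Cish. Of these turned values with median centring, some passed the threshold in the new direction. They were Jak2, Socs3 and Socs6 in tumor against blood (adjusted p = 0.00523, 0.0106 and 0.02815) and Stat2 in tumor against bone marrow (adjusted p = 0.0335). On plain library totals, tumor against bone marrow became 0.39 for Jak3 and 0.11 for Stat6. Cish in blood against bone marrow ranged from -0.18 to 0.10 with each library left out, with a positive sign without bone marrow replicate 3 (0.00238) and without blood replicate 3 (0.10). With a pseudocount of 1, Cish minus Stat5a moved to 3.26 in tumor against blood and 3.12 in tumor against bone marrow. Leaving out each library in turn moved Socs3 minus Socs1 in tumor against blood (0.0087) from -0.087 to 0.17, with a turned sign without tumor replicate 1 (-0.060), blood replicate 2 or blood replicate 3 (-0.054).

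The study describes the compartments as sampled in the same mice, but whether a replicate number marks 1 pool of mice is not given, and same-numbered libraries had correlations of their deviations from -0.211 to 0.182. With the replicate block 9659, 8185 and 5626 genes were called, and of the 10 genes 8, 8 and 6, where Socs3 in tumor against blood and Stat6 in tumor against bone marrow passed and Jak3 in blood against bone marrow did not (adjusted p = 0.0364, 0.019 and 0.0612). Libraries of 4580807 to 7949367 reads leave genes of under about 50 reads, such as Socs1, with wide counting error.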

Other observations

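The receptors and targets below were chosen after their values were seen and are given as measured. The G-CSF receptor gene Csf3r, which is also a neutrophil marker, was higher in blood than in bone marrow by 2.34 (limma adjusted p = 2.17e-06) and decreased by 2.26 from blood to tumor (adjusted p = 1.145e-06), in all 22 alternatives. Between tumor and bone marrow it differed by 0.08 (adjusted p = 0.686), with values from -0.79 to 0.53 over the alternatives. Il4ra and Il13ra1, which form the IL-4 and IL-13 receptor upstream of Stat6, were higher in blood than in bone marrow by 1.76 (adjusted p = 1.47e-05) and 2.65 (adjusted p = 1.63e-06). In tumor Il13ra1 decreased by 1.63 against blood (adjusted p = 1.36e-05) and exceeded bone marrow by 1.02 (adjusted p = 0.000414), the latter not with median centring. Il4ra decreased by 0.85 against blood (adjusted p = 0.00081), a difference of 0.0082 with quantile normalization. Il6ra, the IL-6 binding chain, decreased by 2.21 in tumor against blood (adjusted p = 1.95e-06), whereas Il6st was higher.

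Oncostatin M (Osm), a ligand of the Osmr and Il6st chains, was higher in tumor by 4.32 than in blood (adjusted p = 1.84e-07) and by 2.73 than in bone marrow (adjusted p = 3.75e-06), and decreased by 1.59 from bone marrow to blood (adjusted p = 0.000296), in all 22 alternatives. Among targets, the kinase gene Pim1 was higher in tumor by 1.96 than in blood (adjusted p = 7.57e-06) and by 3.12 than in bone marrow (adjusted p = 3.8e-07), also in all 22. Bcl6, a repressor, decreased by 3.05 (adjusted p = 4.24e-06) and decreased by 2.26 (adjusted p = 4.13e-05). Bcl2l1, an inhibitor of cell death, was higher in tumor by 1.18 than in blood (adjusted p = 9.14e-05), a difference of -0.04 with median centring, and by 2.48 than in bone marrow (adjusted p = 6.12e-07).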
